A study of Mus musculus with 4 samples.

Results

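Circular RNAs (circRNAs) from 9 glutamate receptor genes were counted in mouse brain tissue 3 h after a stroke and in sham tissue. A circRNA belonged to the set when 1 or both of its ends lay on an exon boundary of Gria2, Gria3, Gria4, Grin2a, Grin2b, Grik2, Grm5, Grm7 or Grm8 in the GENCODE M21 annotation of GRCm38. The rule used position alone and found 100 of the 23980 circRNAs in the deposited count table, 67 from the 6 ionotropic receptor genes and 33 from the 3 metabotropic ones.

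Glutamate is the main excitatory transmitter of the brain. Ionotropic receptors are ion channels assembled from subunits: the AMPA type (Gria genes) carries most fast current, the NMDA type (Grin genes) lets in calcium when glutamate meets a depolarised membrane, and the kainate type (Grik genes) tunes release and excitability. Metabotropic receptors (Grm genes) signal through G proteins. Glutamate builds up outside cells when blood flow to the brain stops, and calcium entry through its receptors is a known route of damage in stroke. A circRNA forms when a splice site at the end of an exon is joined back to the start of the same or an earlier exon, so each circle carries a junction sequence that the linear transcript lacks.

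The study gives 1 library for each of 4 tissues. Core frontal, core occipital and penumbra came from mice in which a filament had closed the middle cerebral artery for good (MCAO) 3 h earlier. They are the infarct core towards the frontal lobe, the infarct core towards the occipital lobe, and the cortex at risk around the core, each built from the mixed RNA of 6 mice. Sham was cortex matching the core and penumbra positions after a sham operation. How many sham mice were used, when they were sampled, and the strain, sex and age of the mice are not stated in the labels. With 1 library per tissue there is no replicate error: Fisher's exact test, two-sided, compared the reads of 2 libraries and not the conditions. All intervals are 95% and cover at most counting error. Mixing the RNA of 6 mice hides the spread between animals.

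Levels are given as back-splice counts and as CPM, the count scaled to 1000000 circRNA counts of the library. The libraries held 121393 circRNA counts in core frontal and 83090 in core occipital, with 96349 in penumbra and 106558 in sham, so that 1 count was worth 8.24 CPM in the deepest library. A count is read at a single junction, which each circle has once whatever its length. Across 5948 circRNAs with 10 or more counts, Spearman's rho of count with spliced length was -0.05, as a description across circles that share the same libraries. Among the 27 member circles with 10 or more counts and a spliced sequence it was 0.29. Levels of circles and genes were compared without division by length.

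The junctions that identify the circles described most are printed here 5′ to 3′ on the gene's strand. Lower case marks the last 20 bases of the circle's last exon, and capitals mark the first 20 bases of its first exon, to which they are joined. The sequences are those of GENCODE M21 transcripts on GRCm38, with exons numbered along the transcript. The first 5 are the circles with 100 or more counts over the 4 libraries, and the next 5 are other tested circles, with 10 or more counts over the 2 libraries, whose ratio between some pair of libraries had a counting interval that left out 1.
Grin2b exons 7 to 11: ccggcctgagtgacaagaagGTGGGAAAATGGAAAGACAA
Grin2a exon 4: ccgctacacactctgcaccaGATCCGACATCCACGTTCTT
Grin2b exon 5: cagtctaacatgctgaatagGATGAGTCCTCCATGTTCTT
Grm5 exons 2 to 3: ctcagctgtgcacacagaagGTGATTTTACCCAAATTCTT
Grm5 exon 9: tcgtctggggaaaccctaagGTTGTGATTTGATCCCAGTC
Grm5 exons 6 to 8: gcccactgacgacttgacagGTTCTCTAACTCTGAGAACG
Grik2 exons 5 to 7: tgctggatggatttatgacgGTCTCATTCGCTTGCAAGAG
Grik2 exons 8 to 11: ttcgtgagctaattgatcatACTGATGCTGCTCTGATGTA
Gria2 exons 3 to 5: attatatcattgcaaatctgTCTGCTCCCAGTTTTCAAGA
Grm7 exon 2: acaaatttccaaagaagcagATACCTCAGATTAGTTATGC

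The Grm7 exon 2 circle is the shortest of the set at 217 bases, and its whole sequence, from chr6:110914327-110914543 on the plus strand, is short enough to show. It is a single exon that codes for residues 174 to 246 of the 922-residue receptor, in the extracellular glutamate-binding region.
Grm7 exon 2, whole circle: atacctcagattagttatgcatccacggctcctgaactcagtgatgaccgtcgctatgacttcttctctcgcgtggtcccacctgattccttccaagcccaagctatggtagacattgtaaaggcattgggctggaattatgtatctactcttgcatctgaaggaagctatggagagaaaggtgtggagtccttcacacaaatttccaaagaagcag

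Of the 100 circles, 77 had both ends on exon boundaries of 1 gene, and these held 93.9% of the 1660 counts. Another 22 had 1 end on a boundary, with the other end in an intron for 18 and inside an exon for 4. The remaining circle joined a boundary of Gria2 to one of Glrb, the glycine receptor beta subunit gene on the same chromosome (chr3:80801645-80879732), with 2 counts, both in core frontal. The set was dominated by a few circles. The 5 with 100 or more counts held 801 counts, or 48.3%, while 71 circles had fewer than 10 counts and 23 stood at 2, the lowest sum any circRNA of the table has. A share of 29.0% had 10 or more counts, beside 28.1% of the whole table. Of the 100 circles, 28 were detected in all 4 libraries, beside 30.4% of the whole table.

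Grik2 gave the most circles, 20, followed by Grin2b and Grm7 with 14 each, Gria2 and Grm5 with 13 each, Gria4 with 9, Grin2a with 8, Grm8 with 6 and Gria3 with 3. The order by number of circles differed from that by counts. Grik2 ranked 129th of 5294 host genes by number of circles but 489th by counts, and Grin2a, with 8 circles, ranked 288th by counts. Grin2b led the set in counts at rank 134, and Gria3 closed it at rank 1839.

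**Figure D1:**
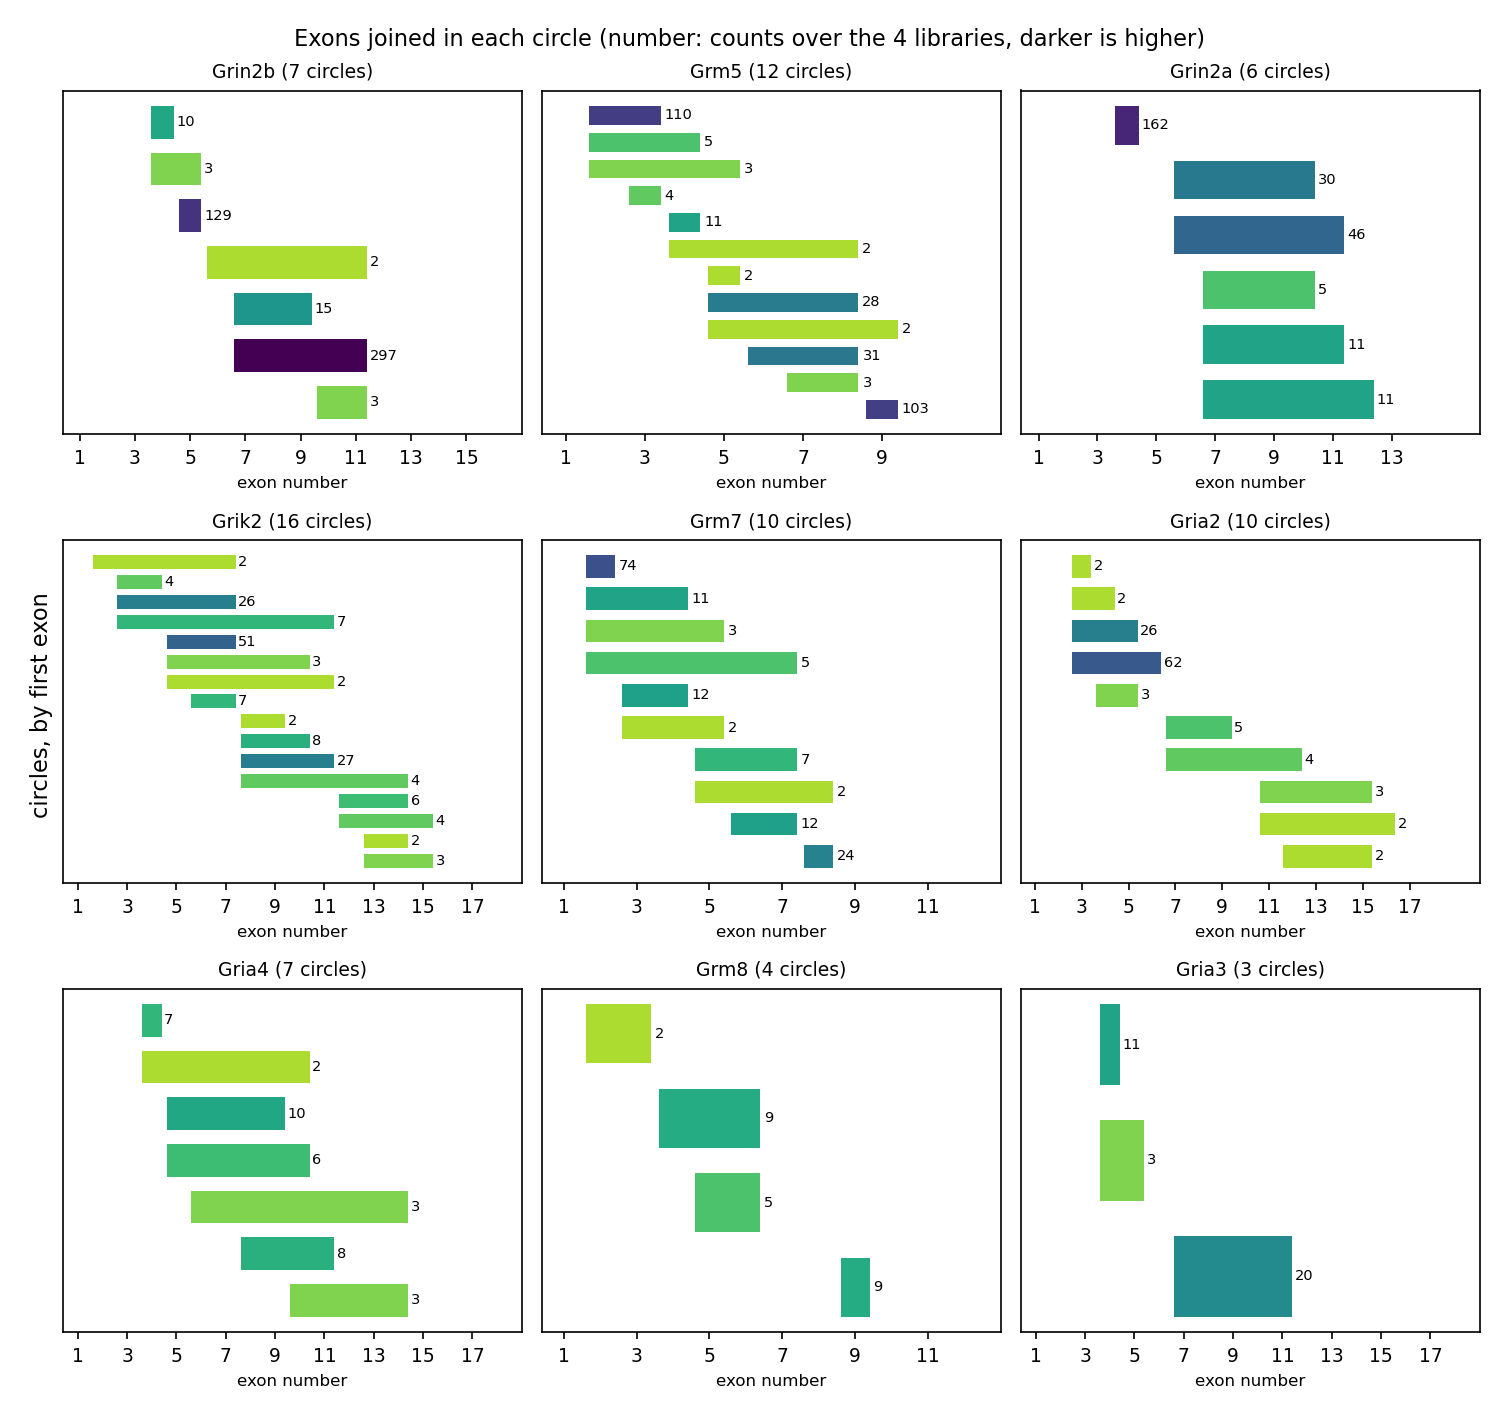
Exons of each circle along the gene's transcript, with 1 bar per circle from its first to its last exon on the x axis and its counts over the 4 libraries printed beside it; darker bars have more counts. Only circles whose ends both lie on exons of the gene's main transcript are drawn. Grin2b and Grin2a have most of their counts in 1 or 2 bars, the highest being 297, while the 16 Grik2 circles are spread from exon 2 to exon 15.

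A spliced sequence within 1 transcript could be built for 76 of the circles. They were drawn from inside the coding sequence: 64 of the 76 (84.2%) held coding bases only, against 82.2% of the table. Of those 64, 26 (40.6%) had a length divisible by 3, against 39.1% of the table. Single-exon circles made up 13 of the 76 (17.1%), against 4.24% of the table. Ionotropic genes had 6 single-exon circles of 50 and metabotropic genes 7 of 26. Circles that start at exon 2, the commonest start in the table at 23.9%, numbered 2 of the 50 ionotropic circles and 8 of the 26 metabotropic ones. Introns beside the circles were long, with a median of 61598.5 bases upstream and 48221 bases downstream, against 8348 and 6709 bases in the table. The median spliced length was 654 bases, against 541 in the table, and the median GC content was 45.9%, against 47.6%. These are descriptions of annotated gene structure and carry no test.

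Among the ionotropic genes, the NMDA receptor subunits gave the most circRNA. Grin2b, which encodes GluN2B, the NMDA subunit dominant early in life, had 157 counts in core frontal and 99 in core occipital, with 112 in penumbra and 121 in sham. On the CPM scale these were 1293, 1191, 1162 and 1136 CPM, in the same order of libraries, the flattest profile of the 9 genes with a highest level 1.14 times the lowest. Most of it came from 1 circle. Exons 7 to 11 of Grin2b (chr6:135772193-135780336, minus strand) had 83 counts in core frontal and 70 in core occipital, with 75 in penumbra and 69 in sham. This circle is 885 bases long, codes in the linear transcript for residues 376 to 670 of 1482, a stretch that takes in channel-pore segments, and ranked 146th among all circRNAs. It held 60.7% of the counts of Grin2b over the 4 libraries, and between 52.9% of them in core frontal and 70.7% in core occipital.

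The next Grin2b circle had another order of libraries, and the profiles of these circles were not tested against each other. Exon 5 (chr6:135922872-135923470, 599 bases, residues 138 to 337 in the amino-terminal domain) had 47 counts in core frontal and 15 in core occipital, with 26 in penumbra and 41 in sham. Core occipital was the lowest library, at 181 CPM with an interval of 101 to 298 CPM, and core frontal and sham were close, at 387 and 385 CPM. Grin2b exons 7 to 9, which start at the same splice site as exons 7 to 11, had 3, 3, 5 and 4 counts in core frontal, core occipital, penumbra and sham.

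Grin2a encodes GluN2A, the NMDA subunit that gains weight as the brain matures. It had 77 counts in core frontal and 55 in core occipital, with 71 in penumbra and 72 in sham, or 634, 662, 737 and 676 CPM. Its levels, too, lay close together, the highest 1.16 times the lowest. Exon 4 (chr16:9761391-9761983, minus strand, 593 bases, residues 139 to 336 of 1464) held 58.9% of these counts. It had 37 counts in core frontal and 34 in core occipital, with 45 in penumbra and 46 in sham. The 5 other Grin2a circles in the main transcript overlapped from exon 6 to exon 12. Of these, exons 6 to 11 had 16, 8, 10 and 12 counts and exons 6 to 10 had 10, 10, 6 and 4 counts in core frontal, core occipital, penumbra and sham.

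The AMPA receptor genes had lower levels. Gria2, whose product GluA2 keeps calcium out of AMPA channels, had 47 counts in core frontal and 18 in core occipital, with 21 in penumbra and 37 in sham, or 387, 217, 218 and 347 CPM. Core frontal and sham were the higher pair, and the intervals of all 4 libraries overlapped. Its main circle, exons 3 to 6 (653 bases, residues 77 to 294, amino-terminal domain), had 24, 8, 15 and 15 counts in core frontal, core occipital, penumbra and sham. The circle of exons 3 to 5, which shares its start, had 10, 4, 1 and 11 counts in that order, so that penumbra was lowest.

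Gria4, the AMPA subunit GluA4, had 14 counts in core frontal and 3 in core occipital, with 9 in penumbra and 17 in sham, spread over 9 circles of which only exons 5 to 9 reached 10 counts. That circle had 4, 0, 1 and 5 counts in core frontal, core occipital, penumbra and sham. Gria3, the X-linked gene of GluA3, had 8 counts in core frontal and 5 in core occipital, with 11 in penumbra and 10 in sham. Its leading circle, exons 7 to 11 (750 bases), was flat at 7, 3, 5 and 5 counts, and exon 4 had 0, 2, 4 and 5 counts, in the same order of libraries. The floor of 3 counts, close to the one-sided 95% limit for a count of 0, is worth 24.7 CPM in core frontal and 36.1 in core occipital, with 31.1 in penumbra and 28.2 in sham, and the two-sided Poisson interval of a count of 0 reaches higher. Such small counts could not show moderate differences.

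Grik2 encodes GluK2, a pore-forming kainate receptor subunit. It had 65 counts in core frontal and 40 in core occipital, with 36 in penumbra and 35 in sham, or 535, 481, 374 and 328 CPM. Its counts were the most evenly divided among circles of any gene with over 100 counts, the leading one holding 29.0%. Exons 5 to 7 (410 bases, residues 181 to 317) had 25 counts in core frontal and 8 in core occipital, with 10 in penumbra and 8 in sham. Exons 8 to 11 (573 bases, residues 318 to 508) had 10, 8, 8 and 1 counts and exons 3 to 7 had 11, 8, 3 and 4 counts, in the same order. The first of these circles was highest in core frontal, with an interval of 133 to 304 CPM that overlapped those of the other libraries. The circle of exons 8 to 11 was lowest in sham, on 1 count, and its intervals overlapped as well. Exons 8 to 10, with the same start, had 0, 2, 2 and 4 counts in that order, highest in sham.

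Of the metabotropic genes, Grm5 stood highest. It encodes mGlu5, the Gq-coupled receptor found around excitatory synapses. Its circles had 118 counts in core frontal and 48 in core occipital, with 71 in penumbra and 69 in sham, or 972, 578, 737 and 648 CPM. Core frontal was the highest library, and its interval of 805 to 1164 CPM lay above that of core occipital, 426 to 766 CPM. Exons 2 to 3 (chr7:87596116-87603201, plus strand, 1003 bases) hold the start codon and code for residues 1 to 220, and had 47 counts in core frontal and 13 in core occipital, with 19 in penumbra and 31 in sham. Exon 9 (chr7:88074191-88075130, 940 bases, residues 563 to 876, the part that crosses the membrane) had 30, 24, 30 and 19 counts, in the same order. Sham was the lowest library for exon 9, and core occipital for exons 2 to 3. Exons 6 to 8 (543 bases, residues 382 to 563) had 20 counts in core frontal and 3 in core occipital, with 3 in penumbra and 5 in sham. The overlapping circle of exons 5 to 8, which ends at the same splice site, had 10, 3, 8 and 7 counts in that order.

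Grm7 and Grm8 encode mGlu7 and mGlu8, Gi-coupled receptors that act mainly on axon terminals to restrain transmitter release. Grm7 had 44 counts in core frontal and 43 in core occipital, with 37 in penumbra and 50 in sham, or 362, 518, 384 and 469 CPM, with overlapping intervals. Exon 2, printed whole above, had 22 counts in core frontal and 19 in core occipital, with 9 in penumbra and 24 in sham, the lowest being penumbra. Exon 8 of Grm7 (936 bases, residues 506 to 817) had 4, 3, 8 and 9 counts and exons 3 to 4 had 2, 4, 2 and 4 counts in core frontal, core occipital, penumbra and sham. Grm8 had 17 counts in core frontal and 5 in core occipital, with 3 in penumbra and 15 in sham, or 140, 60.2, 31.1 and 141 CPM. The most counted of its 6 circles had 11 counts over the 4 libraries, so each was near the floor of 3 counts per library.

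Of the circles with only 1 end on a boundary, the 3 with the most counts were from Grm8, Grm7 and Grin2b. The Grm8 circle, the leading one of its gene, lay at chr6:27758038-27762497 and had 4 counts in core frontal and 2 in core occipital, with 0 in penumbra and 5 in sham. A Grm7 circle that ends with exon 8 (chr6:111267258-111359080) had 3, 5, 3 and 0 counts in the same order, and a Grin2b circle (chr6:135732514-135741082) had 4, 3, 1 and 1 counts.

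In order of counts the genes ran Grin2b, Grm5, Grin2a, Grik2, Grm7, Gria2, Gria4, Grm8 and Gria3. The range over the 4 libraries of Grin2b, 1136 to 1293 CPM, did not overlap that of Grm5, 578 to 972 CPM. Grin2a, at 634 to 737 CPM, stood clear of Grik2, at 328 to 535 CPM, and Gria2, at 217 to 387 CPM, stood clear of Gria4, at 36.1 to 160 CPM. The other neighbours in the order overlapped, so their order is not settled by these libraries. These ranges join single values from 4 different tissues and leave out counting error. In core frontal the intervals of Grin2b (1099 to 1512 CPM) and Grm5 (805 to 1164 CPM) overlapped. So did those of Grin2a (501 to 793 CPM) and Grik2 (413 to 682 CPM), while in sham neither pair overlapped. For Gria2 and Gria4 they overlapped in sham but not in core frontal. The order was not tested.

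**Figure D2:**
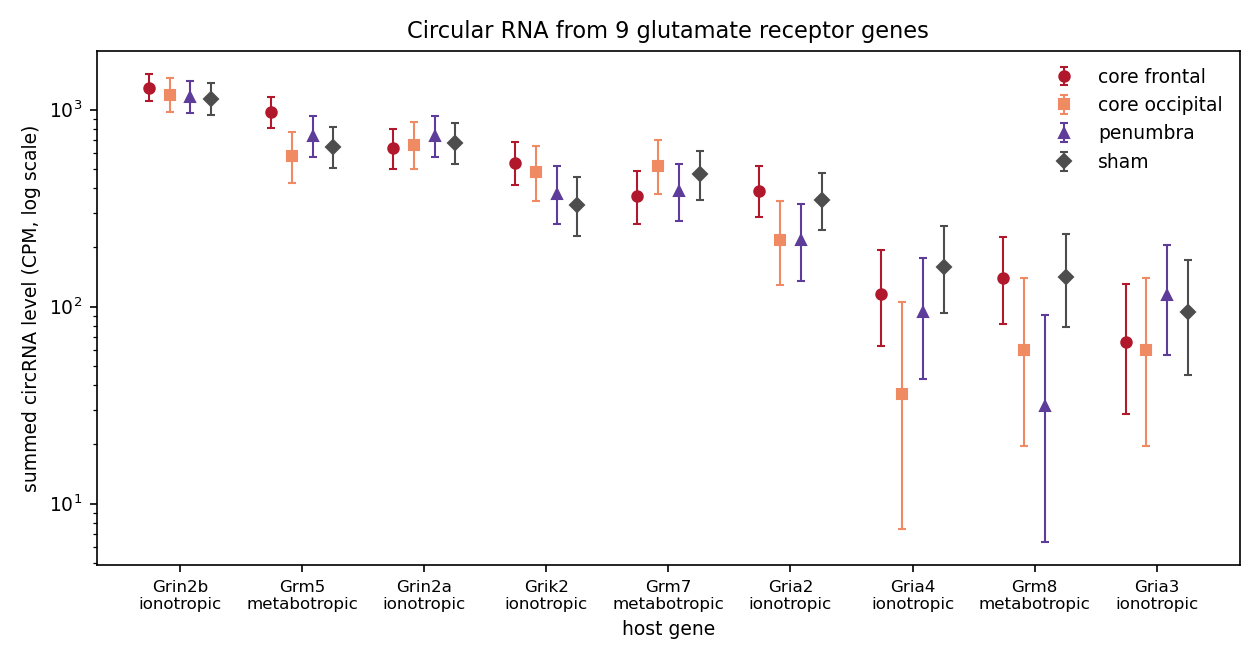
Summed circRNA level of each of the 9 genes in CPM on a log axis, with 1 point per library (core frontal, core occipital, penumbra, sham, left to right) and bars for the 95% Poisson interval. Grin2b lies highest at 1136 to 1293 CPM in all 4 libraries, and the bars of Gria4, Grm8 and Gria3 are wide because they rest on 3 to 17 counts per library.

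Each MCAO library was then set against sham to ask which of these circles differed 3 h after the occlusion. A circle or gene was called at an adjusted p under 0.05 (Benjamini-Hochberg over all circRNAs or host genes tested in the pair) with a CPM ratio of at least 2 or at most 0.5, and was tested where it had 10 or more counts over the 2 libraries. No member circle and no member gene was called in any of the 6 pairs of libraries, over 95 tests of 20 circles and 53 tests of the genes. The other circles had too few counts for a test in any pair, so the counts and medians given for tested circles describe those circles only. Some circles untested in a pair still had an interval there that left out 1. In core frontal against sham these lay on either side of 1, as for Grm5 exon 4 (7 counts against 0) and Grik2 exons 12 to 14 (0 against 6). Removing the trend of the ratios with GC content across all circRNAs also left 0 member circles called. The lowest adjusted p of a circle was 0.0993 and that of a gene 0.0759, by Fisher's exact test. A p that misses the threshold does not show that the levels were alike, and the intervals below give the differences the counts allow.

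Core frontal against sham tested 17 member circles and called 0, against 0.289% of the 4152 circRNAs tested called higher and 0.458% called lower. Among the members 13 had a ratio above 1 and 4 below, with a median ratio of 1.25, against 1.02 over all circRNAs tested. The interval lay above 1 for 3 of the 17 (6.36% of all tested did so) and below 1 for 0 (6.09%). These 3 came from Grik2 and Grm5. Grik2 exons 5 to 7 had a ratio of 2.74 (1.20 to 7.04, adjusted p = 0.192 by Fisher's exact test), and Grik2 exons 8 to 11, with a single count in sham, had a ratio of 8.78 (1.25 to 381, adjusted p = 0.192, the same exact test). Grm5 exons 6 to 8 had a ratio of 3.51 (1.28 to 11.97, adjusted p = 0.155, Fisher's exact test).

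The sums over circles of a gene gave the same 2 names, but they contain the circles just named. Without the leading circle of each gene, the ratio of core frontal to sham was 1.30 for Grik2 and 1.64 for Grm5. The leading circle of Grik2 is among those just named, but that of Grm5 is not. The other named Grik2 circle and the named Grm5 circle therefore stayed in these sums. Ratios without all the named circles were not computed, so whether the gene sums differ apart from them was not tested. Core frontal against sham called 0 of the 9 genes, with 0.115% of the 2598 host genes called higher and 0.5% called lower. The interval lay above 1 for 2 genes (6.77% of all host genes tested) and below 1 for 0 (6.08%). Grik2 was at a ratio of 1.63 (1.06 to 2.53, adjusted p = 0.237 by Fisher's exact test) and Grm5 at 1.50 (1.11 to 2.05, adjusted p = 0.154, exact test). Grin2b, at 1.14 (0.893 to 1.46), and Grin2a, at 0.939 (0.672 to 1.31), had intervals that leave out a 2-fold difference in either direction.

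Core occipital against sham called 0 of 14 member circles, against 0.292% of 3424 circRNAs called higher and 0.175% called lower. Ratios above 1 were seen for 6 and below 1 for 8, with a median of 0.901, against 0.962 over all tested. The interval lay below 1 for 1 member circle (5.7% of all tested) and above 1 for 0 (5.52%). That circle was Grin2b exon 5, at a ratio of 0.469 (0.241 to 0.866, adjusted p = 0.208 by Fisher's exact test). The other main Grin2b circle, exons 7 to 11, was at 1.30 (0.920 to 1.84), so the Grin2b sum stayed at 1.05 (0.796 to 1.38). Of the 9 genes 0 were called, against 0.542% of 2398 host genes higher and 0.375% lower. Gria4 was the 1 gene with an interval below 1 (5.92% of hosts), at 0.226 (0.0425 to 0.782, adjusted p = 0.194, exact test), which rests on 3 counts against 17, and 0 genes had one above 1 (6.05%). Grik2 exons 8 to 11, with 9 counts and so not tested, stood at a ratio of 10.3 (1.38 to 455).

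Penumbra against sham called 0 of 14 member circles, against 0.0538% of 3717 circRNAs called higher and 0% called lower. Above 1 lay 8 ratios and below 1 lay 6, with a median of 1.09, against 1.01 over all tested. The interval lay below 1 for 2 circles (4.95% of all tested) and above 1 for 0 (4.44%). Grik2 exons 8 to 11 had 9 counts over the 2 libraries, too few to be tested, and stood at a ratio of 8.85 (1.19 to 393). The ratios of this circle to sham all divide by the same 1 count, so they are not independent. Gria2 exons 3 to 5 were at a ratio of 0.101 (0.00234 to 0.692, adjusted p = 0.240 by Fisher's exact test), from 1 count against 11. Grm7 exon 2 was at 0.415 (0.170 to 0.924, adjusted p = 0.352, exact test). The longer Gria2 circle with the same start, exons 3 to 6, was at 1.11 (0.504 to 2.43), with 15 counts in each library. Of the genes 0 were called, against 0.162% of 2475 host genes higher and 0.121% lower. Grm8 was the 1 gene with an interval below 1 (5.25% of hosts), at 0.221 (0.0410 to 0.782, adjusted p = 0.231, exact test), from 3 counts against 15, and 0 genes had one above 1 (4.65%).

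**Figure D3:**
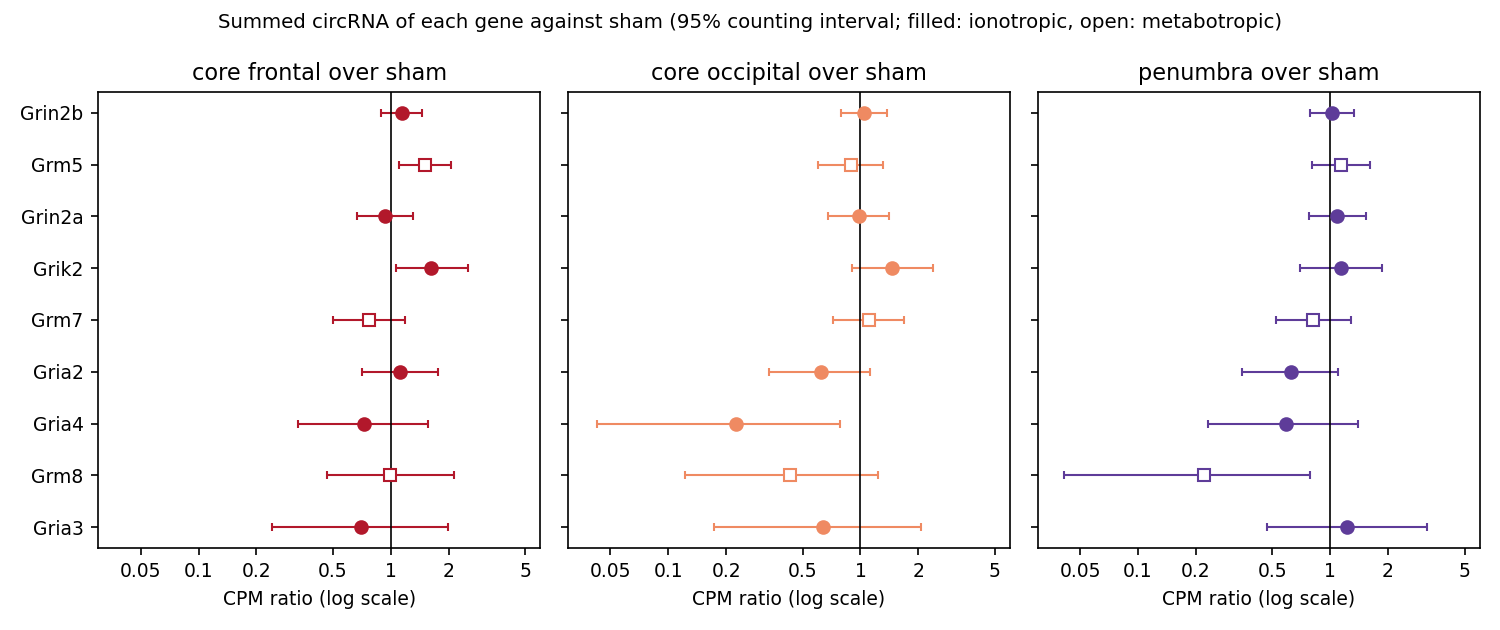
Ratio of the summed CPM of each gene in core frontal, core occipital and penumbra to that in sham on a log axis, with bars for the 95% exact conditional interval; filled circles are ionotropic and open squares metabotropic genes. The Grin2b and Grin2a ratios lie between 0.939 and 1.14 in all 3 panels, and the bars leave out 1 for Grik2 and Grm5 in core frontal, Gria4 in core occipital and Grm8 in penumbra.

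The MCAO libraries were also compared with one another, which asks how core and penumbra, and the ends of the core, differed. These pairs share libraries with the comparisons against sham and are not independent of them. Penumbra against core frontal called 0 of 20 member circles, against 0.53% of 3962 circRNAs called higher and 0.404% called lower. Of the ratios 7 were above 1 and 13 below, with a median of 0.787, against 0.969 over all tested. The interval lay below 1 for 3 circles (5.22% of all tested) and above 1 for 0 (5.93%). Grm5 exons 6 to 8 were at 0.189 (0.0360 to 0.637, adjusted p = 0.0993 by Fisher's exact test) and Grm5 exons 2 to 3 at 0.509 (0.282 to 0.885, adjusted p = 0.208, exact test). Gria2 exons 3 to 5 were at 0.126 (0.00290 to 0.886, adjusted p = 0.293, exact test). Of the genes 0 were called, against 0.548% of 2554 host genes higher and 0.274% lower. The interval lay below 1 for 2 genes (6.26% of hosts) and above 1 for 0 (6.38%). These were Gria2, at 0.563 (0.320 to 0.960, adjusted p = 0.270, exact test), and Grm8, at 0.222 (0.0417 to 0.769, adjusted p = 0.186, exact test).

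Penumbra against core occipital called 0 of 14 member circles, against 0.0303% of 3301 circRNAs called higher and 0.0303% called lower. Of the ratios 9 were above 1 and 5 below, with a median of 1.08, against 1.01 over all tested. The interval of Grm7 exon 2, at 0.408 (0.163 to 0.948, adjusted p = 0.566 by Fisher's exact test), lay below 1, as did 2.42% of all, and 0 members lay above 1 (3.33%). Of the 8 genes tested 0 were called, against 0.0427% of 2344 host genes higher and 0.0427% lower, and 0 had an interval above 1 (3.97% of hosts) or below 1 (2.82%).

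Core frontal against core occipital called 0 of 16 member circles, against 0.185% of 3780 circRNAs called higher and 0.159% called lower. Of the ratios 9 were above 1 and 7 below, with a median of 1.48, against 1.05 over all tested. The interval lay above 1 for 3 circles (5.08% of all tested) and below 1 for 0 (5.32%). Grm5 exons 6 to 8 were at 4.56 (1.35 to 24.0, adjusted p = 0.174 by Fisher's exact test), Grm5 exons 2 to 3 at 2.47 (1.32 to 4.99, adjusted p = 0.115, exact test) and Grin2b exon 5 at 2.14 (1.18 to 4.13, adjusted p = 0.214, exact test). Grm5 exon 9, by contrast, was at 0.856 (0.484 to 1.53), so the tested Grm5 circles with a ratio above 1 were those from exons 2 to 8. This pair had the widest trend of the log2 ratio with GC content, 0.27 at the 10th and -0.18 at the 90th percentile. With the trend removed, Grm5 exons 2 to 3 were at 2.16 (adjusted p = 0.285, exact binomial test) and exons 6 to 8 at 3.92 (adjusted p = 0.334, exact binomial test). Of the genes 0 were called, against 0.242% of 2482 host genes higher and 0.443% lower. The interval lay above 1 for 2 genes (6.33% of hosts) and below 1 for 0 (6.24%). Grm5 was at 1.68 (1.19 to 2.41, adjusted p = 0.0759, exact test), the lowest p of any member gene, and Gria2 at 1.79 (1.02 to 3.27, adjusted p = 0.346, exact test). With TMM scaling Grm5 had an adjusted p of 0.0330 by an exact binomial test, at a ratio of 1.79 that stayed under the 2-fold limit. Without the leading circle of each gene, the Grm5 ratio of this pair was 1.39.

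**Figure D4:**
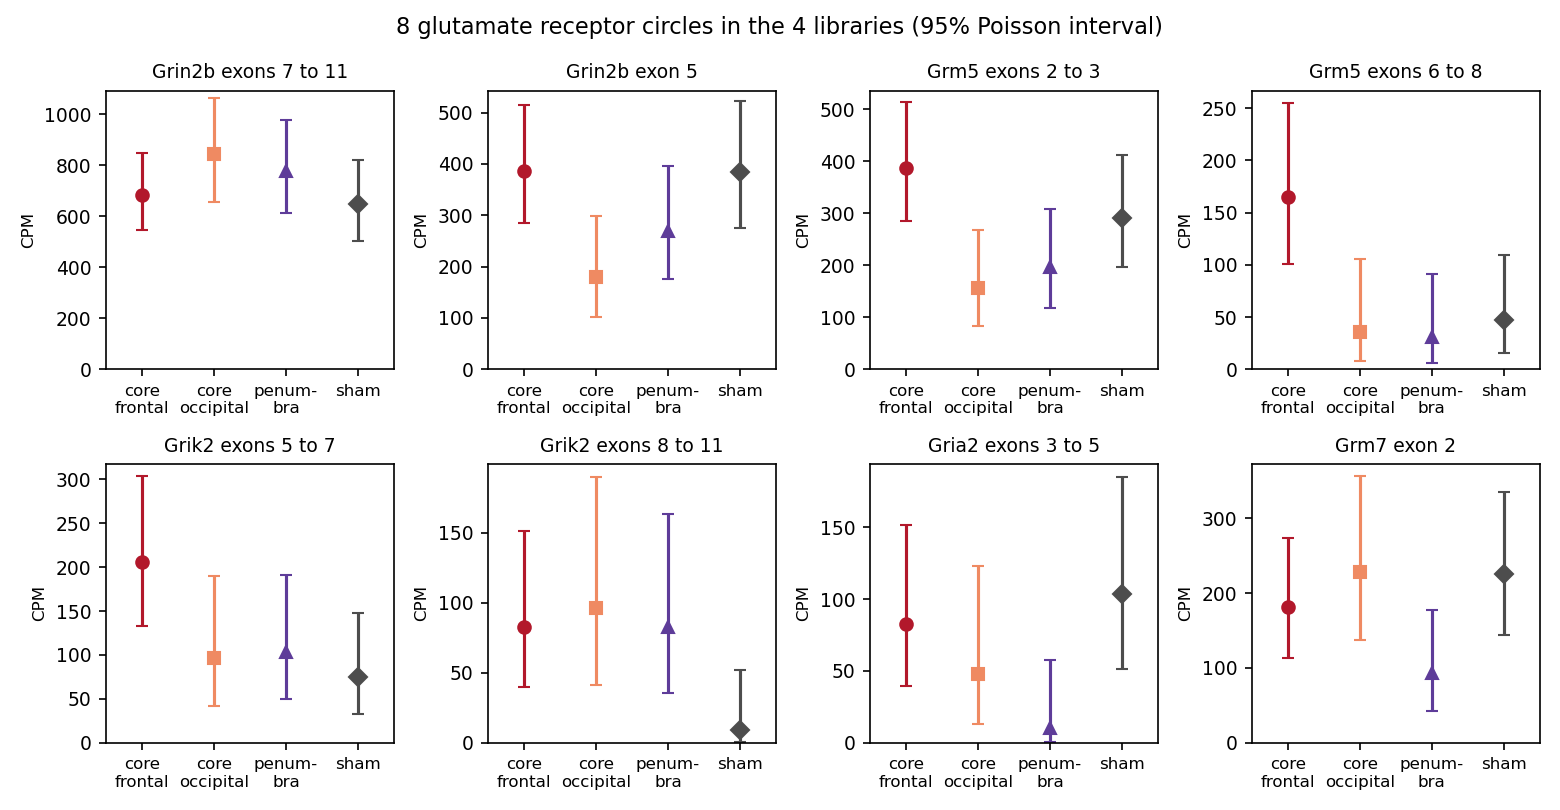
CPM of the Grin2b circle with the most counts and of the 7 circles, among those tested, whose ratio had an interval that left out 1 in some pair, with 1 point per library and bars for the 95% Poisson interval; each panel has its own CPM axis from 0. Grm5 exons 6 to 8 stand at 165 CPM in core frontal and at 31.1 to 46.9 CPM elsewhere. Grik2 exons 8 to 11 stand at 82.4 to 96.3 CPM in the 3 MCAO libraries and at 9.38 CPM in sham, which is 1 count.

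Summed over genes, the class levels lay close to those in sham. Ionotropic circles had 368 counts in core frontal and 220 in core occipital, with 260 in penumbra and 292 in sham, or 3031, 2648, 2699 and 2740 CPM. The ratio to sham was 1.11 (0.946 to 1.29) in core frontal, 0.966 (0.807 to 1.15) in core occipital and 0.985 (0.830 to 1.17) in penumbra. Metabotropic circles had 179 counts in core frontal and 96 in core occipital, with 111 in penumbra and 134 in sham, or 1475, 1155, 1152 and 1258 CPM. Their ratio to sham was 1.17 (0.932 to 1.48) in core frontal, 0.919 (0.699 to 1.20) in core occipital and 0.916 (0.706 to 1.19) in penumbra. The ionotropic share of the counts was 67.3% (63.2 to 71.2) in core frontal and 69.6% (64.2 to 74.6) in core occipital, with 70.1% (65.1 to 74.7) in penumbra and 68.5% (63.9 to 72.9) in sham. These intervals all overlapped. The ratio of penumbra to core frontal was 0.890 (0.757 to 1.05) for ionotropic and 0.781 (0.611 to 0.996) for metabotropic circles.

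All member circles together made up 0.451% of the circRNA counts in core frontal and 0.380% in core occipital, with 0.385% in penumbra and 0.400% in sham. Core frontal had the highest level, 1.18 times that in core occipital (1.03 to 1.37), and penumbra was at 0.855 times core frontal (0.747 to 0.977). The ratio of core frontal to sham was 1.13 (0.991 to 1.28), with an interval that takes in 1. Without Grm5 the metabotropic ratio of core frontal to sham was 0.824, on the other side of 1. These sums have no p, because the genes were picked with results of these data known.

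Some circles have a counterpart in a related receptor. Among 377 pairs of circles from different genes of a subfamily (AMPA, NMDA or metabotropic), 31 had lengths within 5% of each other, and 8 of those aligned at 60% identity or more. The next pair stood at 57.6%. The closest were Grin2a exons 6 to 10 and Grin2b exons 7 to 11, both 885 bases and 73.4% identical, which cover residues 375 to 669 of GluN2A and 376 to 670 of GluN2B. The Grin2b circle had 297 counts and the Grin2a circle 30. Exon 4 of Grin2a and exon 5 of Grin2b, the other counterparts of these genes, had 162 and 129 counts and were 66.4% identical. Thus the 2 NMDA genes shared circle positions but led with different ones.

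Grm7 exon 8 and Grm8 exon 9, both 936 bases, were 72.6% identical, with 24 and 9 counts. In the AMPA genes, the 240-base exon that is number 3 in Gria2 and number 4 in Gria3 and Gria4 formed a circle in each, with 2, 11 and 7 counts and 68.3% to 72.1% identity. These pairs outside the most counted circles were chosen after their values were seen. Their junctions follow in the same notation. Between 31 and 34 of the 40 junction bases agreed within a pair for the 5 closest pairs.
Grin2a exons 6 to 10: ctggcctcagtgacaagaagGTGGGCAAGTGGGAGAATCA
Grm7 exon 8: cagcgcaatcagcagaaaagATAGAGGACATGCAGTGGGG
Grm8 exon 9: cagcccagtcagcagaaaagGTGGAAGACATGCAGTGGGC
Gria2 exon 3: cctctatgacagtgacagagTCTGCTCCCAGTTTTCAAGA
Gria3 exon 4: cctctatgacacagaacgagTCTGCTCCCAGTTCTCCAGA
Gria4 exon 4: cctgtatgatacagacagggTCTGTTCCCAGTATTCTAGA

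The rest of the receptor family gave fewer circles. As the members were chosen with earlier results of these data known, this contrast is a description only. Of 17 other glutamate receptor genes, 12 had 49 circles between them with 563 counts, or 1400 CPM in core frontal and 1396 in core occipital, with 1515 in penumbra and 1229 in sham. Grm4, Grm3 and Grid1 had 108, 115 and 105 counts over the libraries, while Gria1 and Grin1, which encode main AMPA and NMDA subunits, had 11 and 6; these 5 genes were picked after their values were seen. Of 26 genes of receptor partners and glutamate handling, 13 had circles, at 2035, 1986, 2325 and 1924 CPM in core frontal, core occipital, penumbra and sham. Of 16 GABA receptor genes, the inhibitory counterpart, 12 had circles, at 2274, 1877, 1982 and 1896 CPM in that order. In each of these lists 0 host genes were called in any pair.

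The tissue labels could be checked only through circles. Of 8 markers of cortical excitatory neurons 5 had circles, with Slc17a7, Neurod6 and Foxp2 at 0, at a summed 1104 CPM in core frontal and 1071 in core occipital, with 1266 in penumbra and 1051 in sham. Of 9 striatal markers 5 had circles, with Drd1, Drd2, Adora2a and Ppp1r1b at 0, at 1952, 2130, 1723 and 1961 CPM in that order. Of 7 interneuron markers 3 had circles (181, 217, 125 and 113 CPM), with Gad1, Gad2, Sst and Vip at 0. Of 7 astrocyte markers 3 had circles (214, 229, 249 and 122 CPM), with Slc1a3, Gfap, Aqp4 and Sox9 at 0. Microglial markers had none of 6 and endothelial markers 1 of 5, with 3 counts in all. Tle4 held 261 of the 457 cortical excitatory counts, and Foxp1 held 583 of the 789 striatal counts. Erbb4 held 58 of the 64 interneuron counts. Among the other striatal markers, Pde10a and Rgs9 were highest in core frontal, and Bcl11b and Rarb in core occipital. Rgs9 and Rarb rest on 7 and 8 counts. The sums of the cortical excitatory, interneuron and astrocyte markers were lowest in sham, that of the striatal markers in penumbra, and the glutamate receptor sum in core occipital. The marker sums carry no interval, and their order was not tested. Interneuron markers had 12 counts in penumbra and 12 in sham, and astrocyte markers had 13 in sham. The part of cell makeup in the member ratios was not tested, and in such bulk tissue fewer cells of a type and less RNA per cell cannot be told apart.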

How the data were processed

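Ribosomal-RNA-depleted directional libraries were made from total RNA of perfused mouse brain tissue, per the labels' protocols, 1 library for each of 4 tissues. The authors deposited whole-number read counts per circRNA, without normalization, as 1 table for the series. TopHat2 2.0.10, Bowtie and the build mm9 are listed per the submitters' processing notes, while neither the circRNA caller nor its annotation is named there. The deposited coordinates lie on GRCm38: 89.1% of starts and 89.7% of ends fell on GENCODE M21 exon boundaries, against 0.192% of starts moved by 1 base. The table has no strand, so the strand is that of the host gene, and a circle from an overlapping gene on the other strand cannot be told apart. The lowest sum of a circRNA over the libraries is 2 counts. A second deposited table, of FPKM, was not used, since the counts carry the depth.

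Columns were matched to libraries by name, with 0 columns of other samples. CPM are counts scaled here to the library's circRNA total. With 1 library per group edgeR's quasi-likelihood test has no residual degrees of freedom, so Fisher's exact test (SciPy 1.17.1) compared pairs of libraries for features with 10 or more counts, adjusted over the whole table. Ratios carry exact conditional (Clopper-Pearson) intervals, levels Poisson intervals and shares exact binomial intervals, all at 95%. Without molecular identifiers, PCR copies of a molecule are counted more than once. The intervals and exact tests treat each count as independent, so they can understate even the counting error. A count of 0 was set to 3 counts for a ratio of circles. Spliced sequences came from the annotated transcripts and were aligned with Biopython 1.88. The calculations were tested on simulated data. Alternatives used TMM factors (edgeR 4.0.16), DESeq2 1.42.0 size factors, other count minimums, both-end circles only, a GC trend removed, and genes or circles left out. For the TMM, DESeq2 and GC alternatives, an exact binomial test of the pair's counts took the place of Fisher's exact test.

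The members and gene lists were chosen with earlier results of these data known. Named circles were, by rule, the up to 3 of each gene with the most counts (10 or more), the highest and lowest ratio per pair among those with an interval leaving out 1, and the 3 most counted with 1 end on a boundary. The result of 1 list of cell type markers is not reported here.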

Additional observations from a re-analysis of the deposited data

How the results depend on the processing

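Of 292 results recomputed under an alternative, 281 stayed within counting error or on the same side of the threshold, 11 moved by more, and no called result could reverse because none was called. For 116 of these, the single ratios, only the side of 1 and the call were compared, so a change in size did not count as moved. The Gria2 ratio of penumbra to core frontal, for example, went from 0.563 to 0.329 without the leading circle of each gene. No member circle or gene was called under any of the 36 and 36 alternatives for calls; a GC trend was removed in the test of circles only. In the gene test of core frontal against core occipital, Grm5 had an adjusted p of 0.0330 by an exact binomial test with TMM factors. Its ratio there was 1.79, still under the 2-fold limit, and it was 1.39 without the leading circle of each gene. The cause of the moved values was not tested beyond what each alternative leaves out. Without the leading circle of each gene, the ionotropic ratio of penumbra to core frontal was 0.730, the metabotropic ratio of penumbra to sham was 1.24, and the ionotropic share was 61.0% in core occipital and 56.8% in penumbra. Without Grm5, the metabotropic ratio was 0.824 for core frontal to sham, 0.681 for penumbra to sham, 0.719 for penumbra to core occipital and 0.870 for core frontal to core occipital. With both-end circles only, another Grm8 circle led, with 54.5% of the Grm8 counts of core frontal, 0% of those of core occipital and 100% of those of penumbra. Ratios followed GC content across all circRNAs: at the 10th and the 90th percentile of GC the log2 ratio to sham was 0.04 and -0.01 in core frontal, -0.24 and 0.19 in core occipital, and -0.18 and 0.18 in penumbra, and the log2 ratio of core frontal to core occipital was 0.27 and -0.18. Every comparison rests on 1 library per tissue, and 71 of the 100 circles had fewer than 10 counts. No paired analysis was possible because each group has 1 library and the groups share only the replicate number 1.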

Other observations

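The host genes whose circRNA level followed the glutamate receptor sum most closely over the 4 libraries were Ptprd, Smg6, Faf1, Ash1l and Ttc3, out of 423 host genes with 200 or more counts. The measure was the mean absolute log2 difference between the profiles, each divided by its own mean, and it was 0.01 for Ptprd and 0.03 for the other four. Ptprd, a receptor tyrosine phosphatase found at synapses, had 114 counts in core frontal and 66 in core occipital, with 78 in penumbra and 88 in sham. With 4 libraries and 423 genes such closeness is a description only.

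Some circles outside the most counted ones were missing from 1 or more libraries, and some were seen in 1 library only. The share of the whole table seen in 1 library was not computed, so whether this is a trait of the set is not known. Among these, Grik2 exons 12 to 14 had 6 counts and Grik2 exons 12 to 15 had 4 counts, all in sham. Gria2 exons 7 to 12 had 4 counts, all in core frontal, and Grm5 exons 7 to 8 had 3 counts, all in penumbra. Grin2a exons 7 to 11 had 41.2 CPM in core frontal and 62.3 CPM in penumbra, but 0 counts in core occipital and in sham. Grin2a exons 7 to 12, which start at the same splice site, were seen in all 4 libraries, with 16.5 CPM in core frontal, a single count in core occipital, 41.5 CPM in penumbra and 37.5 CPM in sham. Grm5 exon 4 had 57.7 CPM in core frontal and 31.1 CPM in penumbra, a single count in core occipital and 0 counts in sham. Grm7 exons 6 to 7 had 49.4 CPM in core frontal, 24.1 CPM in core occipital and 41.5 CPM in penumbra, with 0 counts in sham, and Grm7 exons 2 to 4 had 0 counts in core frontal alone. These circles were picked after their values were seen, and the floor of 3 counts for a count of 0 is worth 24.7 CPM in core frontal, 36.1 CPM in core occipital and 28.2 CPM in sham.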
